A study of Mus musculus with 2 samples.

Results

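Fibroblasts were examined in colon tumours of mice given azoxymethane, a carcinogen, and dextran sulfate sodium, which injures the colonic lining (AOM/DSS). Tumours were digested to single cells and their RNA was counted with droplet-based 3′ single-cell sequencing. One library came from Gsk3b IEC+/+ mice, in which the intestinal epithelial cells (IEC) keep Gsk3b (the WT library), and one from Gsk3b IEC-/- mice, in which those cells lack it (the KO library). Both groups received AOM/DSS. The sources used here do not give the Cre line that drives the epithelial deletion, the age of the mice or the number of animals behind each library. By its label the deletion lies in epithelial cells, so the fibroblasts of the KO library are neighbours of the deleted cells and not themselves targeted. With 1 library for each genotype, genotype, animal, tumour and preparation cannot be told apart, no p-value was computed, and every interval below is a 95% interval that covers counting error only.

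Fibroblasts were chosen by their counts. A droplet barcode was taken as one where it had at least 1000 unique molecular identifiers (UMIs, one for each captured transcript), at least 200 genes and at most 25% mitochondrial UMIs, and where Col1a1, Col1a2, Col3a1, Dcn and Lum together made up at least 0.3% of its UMIs. This gave 309 fibroblasts among 22104 barcodes that met the first 3 limits, 46 of 10638 for WT and 263 of 11466 for KO. The choice rests on the measured levels of those 5 genes, so their levels are given as a description and support nothing.

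Fibroblasts are the connective tissue cells of the gut. They secrete collagens and proteoglycans, and they feed signals to the epithelium: Wnt ligands and R-spondins sustain stem cells at the crypt base, Bmp ligands favour differentiation towards the lumen, and secreted Bmp antagonists such as gremlin shield the base from those signals. The receptor Pdgfra marks most of them, with the highest levels in cells close to the epithelium. In injured or tumour-bearing colon, fibroblasts also release cytokines and chemokines, or take on contractile proteins of smooth muscle, as myofibroblasts do.

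KO fibroblasts had higher Cxcl13, Sfrp2, Has1, Il6 and Mgp RNA. WT fibroblasts had higher Saa3, Cxcl5, Lcn2 and heat-shock RNA. They also had higher contractile RNA once clusters with markers of another cell class among their leading genes were left out. That difference depended on cluster 0, described below, which held 45.7% of the WT and 15.2% of the KO members. The median log2 ratio of the contractile genes was -0.05 within cluster 0 and 0.26 without it. Wnt and Bmp genes differed in no common direction, with Wnt4 higher and Wnt5a, Bmp4, Bmp7 and Bmper lower in the KO library over all members. Within cluster 0 the intervals of Wnt4, Wnt5a, Bmp4 and Bmp7 included 0, and that of Bmper did not.

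The sequence upstream of the transcription start is shown for 5 genes whose levels carry these differences, because a reader may want to see the promoters that go with them: Saa3, an acute-phase protein, lower in KO fibroblasts, Il6, Cxcl13 and Sfrp2, higher in them, and Myl9, a contractile light chain. Sequences are from RefSeq (GRCm38.p6, the mm10 assembly), run 5′ to 3′ on the gene's own strand and end before the annotated 5′ end of the transcript. Capitals mark matches to a C/EBP motif (TTGCNNAA), a κB motif or a CArG box, each searched on both strands.
Saa3 (chr7:46715701-46715926, minus strand): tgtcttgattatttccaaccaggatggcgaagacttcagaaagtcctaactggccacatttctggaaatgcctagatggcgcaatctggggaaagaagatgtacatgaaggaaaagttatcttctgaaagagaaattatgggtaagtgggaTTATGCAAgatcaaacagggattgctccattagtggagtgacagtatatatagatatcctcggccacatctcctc
Il6 (chr5:30012864-30013113, plus strand): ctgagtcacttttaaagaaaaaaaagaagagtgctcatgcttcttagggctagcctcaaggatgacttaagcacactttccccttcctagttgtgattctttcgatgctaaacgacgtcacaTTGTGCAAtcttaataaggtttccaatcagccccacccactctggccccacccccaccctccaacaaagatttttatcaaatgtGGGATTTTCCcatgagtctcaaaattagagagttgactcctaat
Cxcl13 (chr5:95956689-95956938, plus strand): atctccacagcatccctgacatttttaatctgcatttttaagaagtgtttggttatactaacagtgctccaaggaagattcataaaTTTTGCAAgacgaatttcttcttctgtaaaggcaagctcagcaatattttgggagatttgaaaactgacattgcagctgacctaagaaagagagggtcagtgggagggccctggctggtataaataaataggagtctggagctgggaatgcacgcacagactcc
Sfrp2 (chr3:83766071-83766320, plus strand): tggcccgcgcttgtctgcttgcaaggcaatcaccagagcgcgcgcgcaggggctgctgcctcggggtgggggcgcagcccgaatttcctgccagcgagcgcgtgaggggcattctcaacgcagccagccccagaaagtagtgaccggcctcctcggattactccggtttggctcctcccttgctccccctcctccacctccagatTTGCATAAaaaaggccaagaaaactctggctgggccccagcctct
Myl9 (chr2:156775214-156775419, plus strand): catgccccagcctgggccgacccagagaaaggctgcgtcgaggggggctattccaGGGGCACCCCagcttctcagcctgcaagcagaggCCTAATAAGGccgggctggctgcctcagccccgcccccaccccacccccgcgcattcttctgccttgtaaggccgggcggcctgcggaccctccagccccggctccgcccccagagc

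The search covered all 250 bases before the RefSeq start, also where fewer are shown. The C/EBP motif matched in 5 of 9 promoters searched (those above and Lcn2, Has1, Acta2 and Grem1), and in 9.55% of the 27025 promoters in the same RefSeq table. It was present both in Saa3 and Lcn2, lower in the KO library, and in Il6, Cxcl13 and Sfrp2, higher in it. The κB motif matched in Il6 and Myl9 (3.75% of all promoters) and the CArG box in Myl9 alone (1.40%). TTCNNNGAA, the motif of STAT factors, matched in 0 of the 9 (7.18% of all). The 9 genes were chosen with their levels known, and a match describes letters, not binding.

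The 5 genes of the rule were high in the members because the members were chosen by them. Summed over all fibroblasts of a library and given as counts per 1000000 UMIs (CPM), Col1a1 was at 1291 in WT and 1901 in KO fibroblasts, Col1a2 at 1462 and 1900, Col3a1 at 3582 and 4566, Dcn at 5794 and 4076, and Lum at 205 and 429. The 5 genes made up a median of 1.08% of a WT member's and 1.23% of a KO member's UMIs, against 0.00532% and 0.0192% in empty droplets (under 100 UMIs), which hold free RNA. Just inside the limit, 5 WT and 39 KO members lay between 0.3% and 0.5%, of which 1 and 16 held a Pdgfra UMI. Just outside it, 3 WT and 8 KO barcodes lay between 0.2% and 0.3%, of which 0 and 2 held one.

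Pdgfra, which the rule did not use, was read in 22 of 46 WT members (47.8%, 32.9 to 63.1) and in 158 of 263 KO members (60.1%, 53.9 to 66.0). In other barcodes, whose median depth was 6136 (WT) and 3931 (KO) UMIs against 9062.5 and 8040 in the members, it was read in 0.236% and 0.455%. With each member thinned to 1000 UMIs the shares were 8.70% and 14.1%. Pdgfra was at 129 CPM in WT and 169 CPM in KO fibroblasts, a log2 ratio of KO over WT of 0.39 (-0.0029 to 0.81), and 68.6% and 89.5% of all its UMIs lay in members. In both libraries most Pdgfra RNA thus lay in these barcodes. The interval of its ratio includes 0 over all members. The 4 clusters described below leave out clusters that held markers of another class among their leading genes. Over the 4 clusters Pdgfra was at 142 and 199 CPM, 0.49 (0.021 to 0.999).

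Most RNA of several secreted signals lay in these barcodes. Of all Grem1 UMIs, 91.9% (WT) and 89.9% (KO) lay in members. For Sfrp1, a Wnt-binding inhibitor, the shares were 85.8% and 88.2%, and for Ccl11 (eotaxin), 88.1% and 91.4%. Wnt5a stood at 81.2% and 85.5%, Rspo3 at 81.6% and 78.3%, and Bmp5 at 77.7% and 88.1%. Members were 0.432% and 2.29% of the barcodes.

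**Figure D1:**
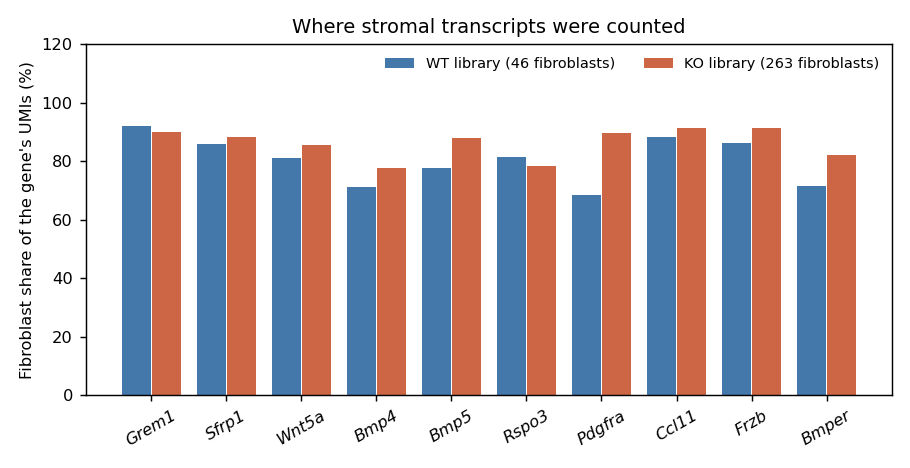
Bars give the percentage of a gene's UMIs, over all barcodes past the limits of depth, genes and mitochondrial UMIs, that lay in fibroblasts (y axis), for 10 genes (x axis) in the WT (blue) and KO (orange) library. Grem1 stood at 91.9% and 89.9%, and Pdgfra at 68.6% and 89.5%.

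The barcodes also held RNA of other cells. If all their epithelial and neutrophil marker RNA was free RNA, free RNA made up 39.3% of WT and 26.1% of KO member UMIs. These shares were used where free RNA was subtracted. Neutrophil markers (S100a8, S100a9, Csf3r and 4 others) summed to 5209 CPM in WT and 1632 CPM in KO members, epithelial markers to 984 and 2066 CPM, and pericyte markers to 303 and 641 CPM. Endothelial markers were at 144 and 64.7 CPM, smooth muscle markers at 369 and 250 CPM, and glial markers at 2.18 and 0.374 CPM, with 5 of 6 glial markers at 0 in each library. A member was counted as mixed where it held at least 3 UMIs of another class's markers, at or above their share in the library's empty droplets. This was so for 11 WT members (23.9%) and 46 KO members (17.5%), of which 5 and 15 carried neutrophil RNA. No barcode sequence was shared between the members of the 2 libraries, and 37 were shared among all barcodes past the limits.

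Clustering of the 309 members gave 7 clusters, which differed in identity as well as state. Cluster 0 (21 WT and 40 KO cells) was led by Sncaip, Lama1 and Adam19. Cluster 2 (2 and 72) was led by Cxcl9, Iigp1 and Enpp3, cluster 4 (5 and 46) by Pi16, Sfrp4 and Cilp, and cluster 5 (6 and 43) by Wfdc12, Sfrp2 and Cxcl13. Cxcl9 does not describe cluster 2 as a whole: over all KO members 15 cells held it, and 1 cell held 69.5% of its UMIs. The other 3 held markers of another class among their leading genes. Cluster 3 (7 and 17) was led by S100a9 and S100a8, the neutrophil calprotectin genes, and 23 of its 24 cells were mixed. Cluster 6 (0 and 20) was led by Krt17 and held Epcam and Cdh1 among its leading genes, at a median of 26059 UMIs. Cluster 1 (5 and 25) was led by Mmp13 and Rgs5, a pericyte marker.

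At a finer resolution cluster 1 parted into 2 groups. One, of 2 WT and 12 KO cells, was pericyte-like: Rgs5, Higd1b, Ndufa4l2 and Notch3, all pericyte markers, were among its 10 leading genes, Rgs5 stood at 5938 CPM against 63.5 CPM in the other members, Acta2 at 6119 CPM, and Pdgfra and Lum at 0 (up to 23.8 CPM by the interval). The other, of 3 and 13 cells, was led by the collagenase gene Mmp13, with Inhba, an activin subunit, at 1827 CPM and the cytokine Il11 at 1967 CPM against 38.3 and 99.1 CPM in the other members. It held Pdgfra at 221 CPM. Over all KO members 1 barcode held 56.9% of the Il11 UMIs and 1 held 31.9% of those of Inhba. The rule therefore takes in some barcodes whose leading genes go against the label of fibroblast. Each comparison below is given over all members and, where it matters, over the 34 WT and 201 KO members of clusters 0, 2, 4 and 5, called the 4 clusters. With cluster 1 these also leave out its Mmp13-led group. That group held Pdgfra, and none of its 10 leading genes was a marker of another class.

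**Figure D2:**
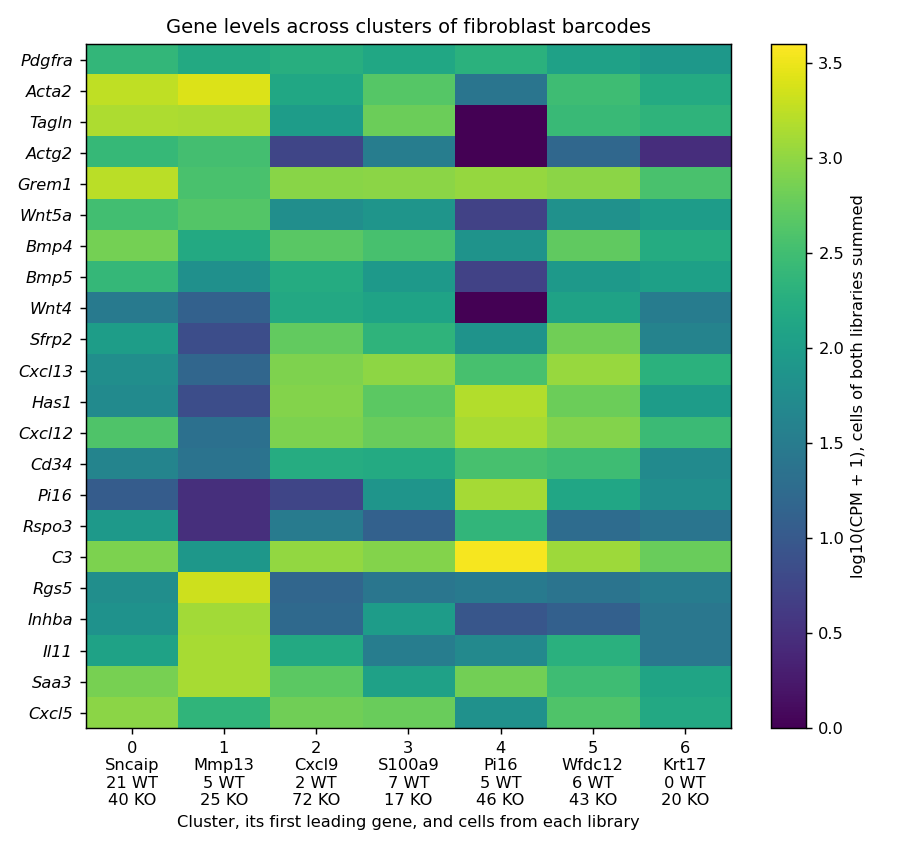
Colour gives log10(CPM + 1) of 22 genes (rows) in the 7 clusters of fibroblast barcodes (columns, with the first leading gene and the cells of each library), summed over both libraries. Acta2 and Tagln were high in clusters 0 and 1 and Tagln was at 0 in cluster 4, where Pi16 and C3 were highest.

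The share of fibroblasts was 0.432% (0.317 to 0.576) of WT barcodes and 2.29% (2.03 to 2.58) of KO barcodes, 5.30-fold apart. Over the 4 clusters it was 0.320% (0.221 to 0.446) and 1.75% (1.52 to 2.01). With at least 1% of UMIs from the 5 genes it was 0.244% and 1.47%. The KO share exceeded the WT share beyond counting error in each of these, but a share also depends on how well each digestion released the cells, which was not measured. The 46 WT members held 458424 UMIs and the 263 KO members 2672321, so the WT sums carry the larger error in every ratio below.

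Gsk3b RNA itself did not differ in fibroblasts. Its level was 223 CPM in WT and 217 CPM in KO members, a log2 ratio of -0.036 (-0.34 to 0.28), against 237 and 221 CPM in other barcodes. Gsk3b lies at chr16:38089001-38246084 on the plus strand (mm10). The 3′ tags count the end of the transcript, and the sources used here do not say which exons were deleted, so this level checks neither the deletion nor the labels.

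Over all genes, 10647 had at least 20 UMIs in members. A gene was called where its KO and WT levels were more than 1.5-fold apart: 1801 (16.9%) were higher and 1504 (14.1%) lower in the KO library, and 591 (5.55%) and 695 (6.53%) when the counting interval also had to lie beyond 0. In the 4 clusters, 8980 genes were measured, and 1413 (15.7%) were higher and 1492 (16.6%) lower, or 372 (4.14%) and 530 (5.9%) with the interval. The median log2 ratio was 0.0026 over all measured genes. Of the 1757 genes at least 2-fold above other barcodes in both libraries, 212 (12.1%) were higher and 350 (19.9%) lower, with a median of -0.13. The counts of each gene group below are read against these shares, the latter where most genes of a group stood above other barcodes.

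Wnt ligands are secreted glycoproteins that act on nearby cells through Frizzled receptors. Of 19 ligand genes 7 were measured, with a median log2 ratio of 0.78, which was -0.10 with at least 1% of UMIs from the 5 rule genes and -0.41 with free RNA subtracted. Wnt4, Wnt5b, Wnt9a and Wnt10a were past 1.5-fold higher, Wnt5a was past it lower, and the interval lay beyond 0 for Wnt4 and Wnt5a. Wnt5a, the main ligand of the β-catenin-independent branch, was at 301 CPM in WT and 157 CPM in KO fibroblasts, a log2 ratio of -0.94 (-1.22 to -0.65). One WT cell held 31.2% of its WT UMIs. Over the 4 clusters Wnt5a was at 235 and 130 CPM, and within cluster 0 alone it was at 280 and 338 CPM, 0.27 (-0.16 to 0.72).

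Wnt4 was at 21.8 CPM in WT and 73.7 CPM in KO fibroblasts, 1.76 (0.85 to 2.84), on 10 WT UMIs in 5 cells against 197 KO UMIs in 73 cells. Its level was 150 CPM in cluster 2 and 118 CPM in cluster 5 but 29.5 CPM in cluster 0, where the ratio was 0.18 (-1.29 to 1.85). Wnt2, a β-catenin-dependent ligand, was at 37.1 and 32.2 CPM, -0.20 (-0.97 to 0.64), and 81.0% and 81.1% of its UMIs lay in members. Wnt5b was at 17.5 and 29.9 CPM and Wnt9a at 2.18 and 7.11 CPM, both with intervals that include 0. Wnt6 and Wnt10a were lower in members than in other barcodes (68.8 and 42.5 CPM there in the WT library), so their few UMIs in members cannot be told apart from free RNA.

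Of 14 R-spondins and secreted Wnt inhibitors 9 were measured, 4 past 1.5-fold higher and 2 lower. Sfrp2, which binds Wnt proteins, was rare in WT cells: 28.4 CPM in WT and 268 CPM in KO fibroblasts, 3.24 (2.45 to 4.15), with UMIs in 6 of 46 and 111 of 263 members. WT cells with Sfrp2 were few, and 1 of them held 53.8% of the 13 WT UMIs. The gap was 3.15 (2.36 to 4.07) in the 4 clusters and 2.30 (1.10 to 3.81) within cluster 0, where the levels were 27.1 and 134 CPM. Sfrp4 was at 2.18 and 40.0 CPM, from 1 WT UMI and 107 KO UMIs in 21 cells. Of the KO UMIs 36.4% lay in 1 cell, without which the KO level was 25.5 CPM.

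Sfrp1 was the most abundant of the group, at 1071 and 1413 CPM, 0.40 (0.26 to 0.54), within 1.5-fold over all members. Over the 4 clusters it was at 1175 and 2059 CPM, 0.81 (0.65 to 0.97), and in cluster 0 at 723 and 2750 CPM, 1.93 (1.69 to 2.17), but it was -0.30 without cluster 0. Frzb, another Frizzled-like inhibitor, was at 137 and 82.7 CPM, -0.73 (-1.14 to -0.31), and Dkk3 at 153 and 92.4 CPM, -0.72 (-1.11 to -0.32); in the 4 clusters both were within 1.5-fold, at -0.43 (-0.91 to 0.072) and -0.56 (-1.01 to -0.094). Rspo3, the R-spondin that amplifies Wnt signals at the crypt base, was at 67.6 and 47.1 CPM, -0.52 (-1.10 to 0.10); it was highest in cluster 4, at 236 CPM. Over the 4 clusters Rspo3 was past 1.5-fold lower (107 and 68.5 CPM, -0.64, -1.23 to -0.019), while in cluster 0 it was higher in the KO library (45.2 and 105 CPM, 1.22, 0.22 to 2.37). Notum and Wif1 were past 1.5-fold higher and Dkk2 was not, but all 3 were lower in members than in other barcodes.

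Over all members Bmp ligands were level or lower in the KO library, while Bmp2 was past 1.5-fold higher in the 4 clusters. Of 12 genes on the list 6 were measured, counting Bmp1, which is a protease and not a ligand. All 6 were at least 2-fold above other barcodes in both libraries. Past 1.5-fold, 2 were lower and 0 higher, with a median of -0.25. Bmp4 was at 582 CPM in WT and 357 CPM in KO fibroblasts, -0.70 (-0.90 to -0.50), and in the 4 clusters at 663 and 489 CPM, -0.44 (-0.67 to -0.21), which is within 1.5-fold. Bmp7 was at 124 and 56.9 CPM, -1.13 (-1.58 to -0.66), and kept a ratio of -1.42 (-1.98 to -0.84) in the 4 clusters. Within cluster 0 Bmp4 was at -0.18 (-0.45 to 0.10) and Bmp7 at -0.66 (-1.31 to 0.011).

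Bmp5, typical of the subepithelial cells high in Pdgfra, was at 159 and 127 CPM, -0.33 (-0.70 to 0.06). Bmp6 was at 188 and 187 CPM, Bmp2 at 61.1 and 78.2 CPM, and Bmp1, a protease that cleaves procollagen, at 212 and 187 CPM, each with an interval that includes 0. In the 4 clusters Bmp2 was at 0.74 (-0.38 to 2.11). Without mixed members it was at 1.03 (0.056 to 2.20), on 9 WT and 115 KO UMIs. Cluster 0 carried the most Bmp4 (700 CPM) and Bmp5 (253 CPM), and cluster 4 little of either (69.2 and 4.07 CPM).

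Among the secreted Bmp antagonists 11 of 12 were measured, with a median of -0.21. Bmper, which binds Bmp ligands outside the cell, was the one past 1.5-fold with its interval beyond 0: 177 and 62.5 CPM, -1.50 (-1.89 to -1.10), and -1.43 (-1.90 to -0.96) in the 4 clusters. Grem1 was the most abundant, at 1265 and 870 CPM, -0.54 (-0.67 to -0.41), within 1.5-fold. In the 4 clusters Grem1 was at 1330 and 1198 CPM, -0.15 (-0.31 to 0.010), and within cluster 0, which carried the most, it turned to 1166 and 1958 CPM, 0.75 (0.55 to 0.95). The pooled Grem1 ratio therefore depended on which clusters were summed.

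Fstl1, a follistatin-like glycoprotein, was at 977 and 844 CPM and Nbl1, of the gremlin family, at 574 and 399 CPM, both within 1.5-fold. Chrdl2 was at 48.0 and 73.3 CPM and Fst at 17.5 and 10.5 CPM, past 1.5-fold in opposite directions with intervals that include 0. Chrd, Chrdl1, Fstl3 and Twsg1 were within 1.5-fold. Of 11 measured Bmp receptors and targets, Bmpr1b, a type I receptor, was lower (72.0 and 27.7 CPM, -1.38, -1.99 to -0.74), as was Smad7, an inhibitory Smad (275 and 172 CPM, -0.68, -0.97 to -0.38). Id4 was past 1.5-fold lower on 5 and 19 UMIs. Id1 was higher (172 and 281 CPM, 0.71, 0.37 to 1.06) but at 142 and 124 CPM in the 4 clusters; in other barcodes it was at 695 and 788 CPM. Bmpr1a, Bmpr2, Acvr1, Acvr2a, Id2, Id3 and Smad6 were within 1.5-fold.

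**Figure D3:**
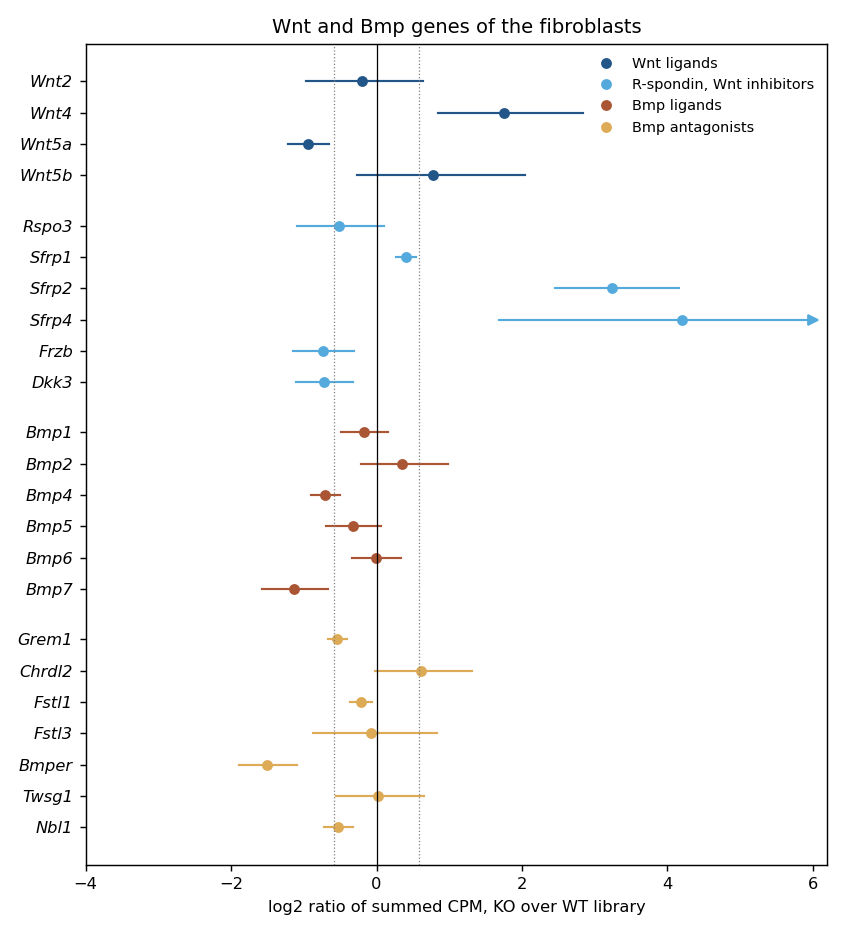
Points give the log2 ratio of summed CPM, KO over WT library (x axis), of the Wnt and Bmp genes with at least 50 UMIs that stood 2-fold or more above other barcodes in both libraries, lines the 95% counting interval (arrowheads where it runs past the axis), and dotted lines 1.5-fold. Sfrp2 and Sfrp4 lie farthest to the right at 3.24 and 4.20, while Bmp4, Bmp7 and Bmper lie below 0.

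Inflammatory genes parted in both directions. Of 27 measured, 7 were past 1.5-fold higher and 9 lower, with a median of -0.13, and 7 and 6 had intervals beyond 0. Cxcl13, the chemokine that attracts B cells, was at 28.4 CPM in the WT library (13 UMIs in 5 cells) and 503 CPM in the KO library (1345 UMIs in 80 cells), 4.15 (3.37 to 5.06). WT cells with Cxcl13 held few UMIs each, while the KO cell with the most held 9.96% of the KO UMIs. Without the top cell of each library the levels were 19.9 and 455 CPM. In the 4 clusters the ratio was 3.80 (3.02 to 4.71), but within cluster 0 the levels were 40.7 and 68.0 CPM, 0.74, with an interval that includes 0.

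Il6, a cytokine of acute inflammation, was at 45.8 and 184 CPM, 2.01 (1.38 to 2.71), with UMIs in 10 of 46 WT and 110 of 263 KO members (21.7% and 41.8%, and 4.35% and 17.5% after thinning to 1000 UMIs). In other barcodes 4.66% and 2.72% held an Il6 UMI. Tnfaip6, which modifies hyaluronan, was at 528 and 888 CPM, 0.75 (0.56 to 0.95), and Cxcl12, the ligand of Cxcr4, at 373 and 565 CPM, 0.60 (0.37 to 0.84). Within cluster 0 Tnfaip6 was at -1.30 (-1.86 to -0.74) and Cxcl12 at -0.22 (-0.59 to 0.15).

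Saa3 was far higher in the WT library, at 2487 CPM (1140 UMIs in 21 of 46 cells) against 253 CPM (677 UMIs in 48 of 263 cells), -3.30 (-3.43 to -3.16). WT levels were uneven, and 1 cell held 30.2% of the WT UMIs; without the top cell of each library they were 1785 and 195 CPM. The ratio was -2.57 (-2.75 to -2.40) in the 4 clusters and -3.34 (-3.70 to -3.00) within cluster 0. Cxcl5, a chemokine for neutrophils, was at 1291 and 355 CPM, -1.86 (-2.01 to -1.71), and -1.88 (-2.11 to -1.64) within cluster 0. Other barcodes held Saa3 at 38.8 and 21.2 CPM and Cxcl5 at 99.8 and 66.6 CPM.

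Cxcl14 was also lower in the KO library (1597 and 666 CPM, -1.26, -1.39 to -1.14), but in cluster 0, which carried the most, it was at 1857 and 1861 CPM. Ccl2, which attracts monocytes, was at 757 and 302 CPM, -1.33 (-1.51 to -1.14), with 51.3% of the WT UMIs in 1 cell, at 473 and 367 CPM in the 4 clusters, and at 465 and 50.5 CPM in cluster 0, -3.20 (-3.92 to -2.54). Ccl11 (565 and 518 CPM) and Il11 (242 and 309 CPM) were within 1.5-fold, though without mixed members Il11 was at -0.92 (-1.29 to -0.54). Neutrophil marker RNA was also higher in the WT members (5209 and 1632 CPM), and its part in the Saa3, Cxcl5 and Lcn2 differences was not tested; with mixed members left out these 3 were at -3.68, -1.62 and -3.76.

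**Figure D4:**
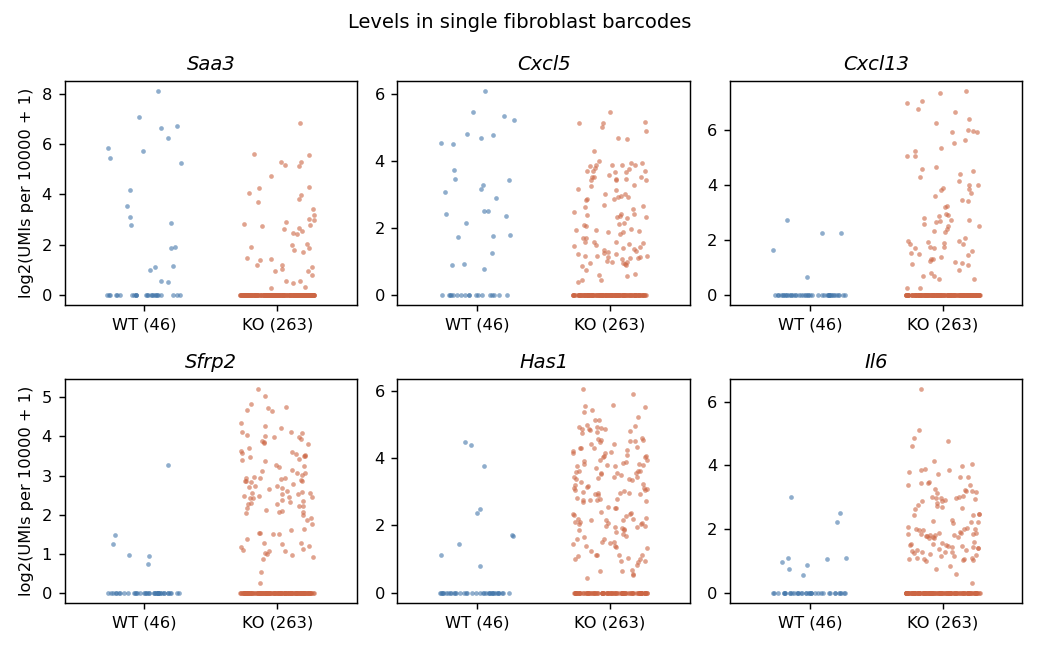
Each point is 1 fibroblast barcode, with the level of 1 gene as log2(UMIs per 10000 + 1) on the y axis, in the WT (46) and KO (263) library; sideways spread is random. Saa3 UMIs were found in 21 WT and 48 KO cells, and Sfrp2 UMIs in 6 and 111.

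Summed over clusters, contractile genes were lower in the KO library. Over all members 6 of 19 were past 1.5-fold lower and 0 higher, with a median of -0.33. This stands beside 19.9% lower and 12.1% higher among genes at least 2-fold above other barcodes. In the 4 clusters 11 of 18 were lower and 1 higher, with a median of -0.94, beside 16.6% and 15.7% of all genes there. Shares among genes above other barcodes were not computed for the 4 clusters. Acta2, smooth muscle actin, was at 1115 and 887 CPM over all members, -0.33 (-0.47 to -0.19), and at 1365 and 639 CPM in the 4 clusters, -1.09 (-1.26 to -0.92). Tagln, an actin-binding protein, was at 1060 and 598 CPM, -0.83 (-0.97 to -0.68), and Myl9 at 308 and 200 CPM, -0.62 (-0.89 to -0.34). Myh11 was at 80.7 and 30.3 CPM, -1.41 (-1.99 to -0.81), with 51.4% of the WT UMIs in 1 cell, and Mylk, the kinase of myosin light chains, at 131 and 75.6 CPM, -0.79 (-1.21 to -0.35).

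Part of these differences went with the cells of cluster 0. Within it Acta2 was at 1757 and 1839 CPM and Tagln at 1464 and 1453 CPM, and the median of the contractile list was -0.05, but Myh11 (145 and 54.9 CPM, -1.40, -2.21 to -0.60) and Myl9 (-0.46, -0.83 to -0.087) were lower in KO cells inside it too, and Mylk was at -0.56 (-1.12 to 0.0054). Without cluster 0 the median was 0.26, and Myl9, Mylk and Myh11 were at 0.10, 0.27 and 0.26, each with an interval that includes 0. Cluster 0 held 45.7% (30.9 to 61.0) of the WT and 15.2% (11.1 to 20.1) of the KO members. Genes that differ between the libraries took part in that clustering; when the 1286 genes past 1.5-fold with an interval beyond 0 were left out, the cluster with most of these cells held 39.1% (25.1 to 54.6) and 17.5% (13.1 to 22.6). The defining smooth muscle genes Myh11 and Actg2 stood at 84.2 and 260 CPM in cluster 0. The median member carried 28.4 (WT) and 19.4 (KO) contractile UMIs per 10000 (quartiles 14.8 to 51.4 and 11.4 to 37.4), against 5.78 and 5.33 in other barcodes, so the ranges overlapped widely.

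**Figure D5:**
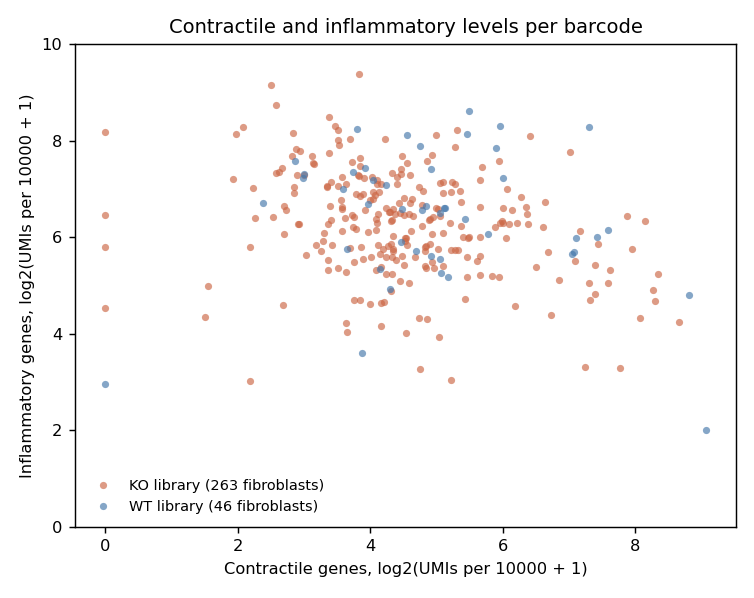
Each point is 1 fibroblast barcode, with the summed UMIs of the contractile (x axis) and inflammatory (y axis) lists as log2(UMIs per 10000 + 1), for the WT (blue, 46) and KO (orange, 263) library. The libraries overlap on both axes, with medians of 28.4 and 19.4 contractile and 95.3 and 77.8 inflammatory UMIs per 10000.

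Of 12 measured genes linked to CD34-positive fibroblasts of the crypt base and outer layers, 5 were past 1.5-fold higher in the KO library, all with intervals beyond 0, and 0 lower, with a median of 0.086. Among the 5, Cd81 was at 137 and 207 CPM in members but at 535 and 509 CPM in other barcodes. Its UMIs in members cannot be told apart from free RNA. In the 4 clusters 3 were higher (Cd34, Has1 and Dpt) and 1 lower (Rspo3), with Ly6c1 at 0.55. Has1, a hyaluronan synthase, was at 140 CPM in WT (10 of 46 cells) and 475 CPM in KO fibroblasts (161 of 263 cells), 1.77 (1.40 to 2.15). One WT cell held 48.4% of the WT Has1 UMIs. Dpt, a matrix protein typical of fibroblasts of many tissues, was at 266 and 490 CPM, 0.88 (0.61 to 1.16), Ly6c1 at 168 and 282 CPM, 0.75 (0.41 to 1.10), and Cd34 at 85.1 and 134 CPM, 0.66 (0.18 to 1.17). Cd34 was at 54.2 and 35.1 CPM within cluster 0. Has2, a second hyaluronan synthase, was at 13.1 and 55.4 CPM, 2.08 (0.92 to 3.55), and Ugdh, which makes a sugar precursor of hyaluronan, at 100 and 359 CPM, 1.84 (1.41 to 2.30). These genes were set side by side after their values were seen, and in the 4 clusters they were at 2.16 (Has1), 2.09 (Has2) and 2.19 (Ugdh).

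Of 15 collagens outside the rule, 1 was past 1.5-fold lower and 3 higher: Col5a1 (286 and 449 CPM, 0.65, 0.39 to 0.92), Col5a3 (103 and 257 CPM, 1.33, 0.90 to 1.79) and Col6a3 (133 and 322 CPM, 1.27, 0.90 to 1.67). Col5a3 and Col6a3 were highest in cluster 1 (979 and 1020 CPM), and in the 4 clusters they were at 0.30 and 0.28, with intervals that include 0. Within cluster 0 they were at 0.97 (0.29 to 1.72) and 1.37 (0.81 to 1.97), and without mixed members at 1.25 and 1.29. Of 20 proteoglycan and elastic fibre genes, 6 were lower and 1 higher. Vcan, a large proteoglycan, was at 233 and 430 CPM, 0.88 (0.59 to 1.18), and the elastic fibre genes Mfap4 (652 and 377 CPM, -0.79) and Mfap5 (356 and 173 CPM, -1.04) were lower, as were the small proteoglycans Prelp (345 and 165 CPM, -1.06) and Ogn (260 and 171 CPM, -0.60). Over the 4 clusters Mfap4, Mfap5 and Ogn were within 1.5-fold (-0.48, -0.43 and -0.37), Prelp was not (-0.65), and Vcan was at 1.14.

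Of 16 proteases and inhibitors 5 were lower and 1 higher. The stromelysin Mmp10 was at 960 and 470 CPM, -1.03, and Mmp13 at 881 and 376 CPM, -1.23. Single cells held 41.4% of the WT and 63.1% of the KO Mmp10 UMIs, and 55.4% and 50.9% of those of Mmp13. Over the 4 clusters the ratios were -2.84 (428 and 59.8 CPM) and -4.76 (135 and 4.98 CPM). Without mixed members Mmp10 was at -2.54 and Mmp13 at 0.40, and with at least 1% of UMIs from the rule genes they were at 1.07 and 2.12, so the direction of both depended on which members were summed. Adamts12 was at 116 and 53.1 CPM, -1.12 (-1.59 to -0.64), and Adamts1 at 30.5 and 96.9 CPM, 1.67 (0.89 to 2.56). Among 12 genes of the Tgf-beta pathway 4 were lower and 3 higher. Ltbp2, a latent Tgf-beta binding protein, was at 137 and 51.3 CPM, -1.42 (-1.86 to -0.97), and Ccn2, a matricellular protein, at 524 and 301 CPM, -0.80 (-1.01 to -0.59), which was -0.47 (560 and 404 CPM), within 1.5-fold, in the 4 clusters. Inhba was at 87.3 and 254 CPM, 1.54 (1.08 to 2.04), and at 41.5 and 30.5 CPM in the 4 clusters.

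Of 20 measured growth factors 5 were past 1.5-fold higher and 1 lower. Ereg, a ligand of the EGF receptor, was at 1006 and 1240 CPM, 0.30 (0.16 to 0.45), far above 7.74 and 10.2 CPM in other barcodes, and was highest in cluster 2 (2541 CPM). Nrg1, a ligand of Erbb3 and Erbb4, was at 268 and 370 CPM, 0.46 (0.19 to 0.74), but in the 4 clusters at 266 and 147 CPM, -0.86 (-1.23 to -0.46), with 1417 CPM in cluster 1. None of the 10 complement genes passed 1.5-fold, with C3 at 927 and 963 CPM.

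Of 13 genes induced by interferon gamma, 4 were higher and 1 lower. Irf1, a transcription factor, was at 144 and 262 CPM, 0.86 (0.50 to 1.25), and Iigp1, a GTPase, at 85.1 and 144 CPM, 0.76 (0.28 to 1.27). Cxcl9 (19.6 and 44.2 CPM, 1.17, 0.20 to 2.33) came mostly from 1 cell in each library, with 66.7% of the WT and 69.5% of the KO UMIs. Cxcl10 was below the level of other barcodes. Within cluster 0 the list had a median of -1.30, with Iigp1 at 158 and 17.6 CPM and Cxcl10 at 203 and 30.7 CPM. Most KO Iigp1 UMIs lay outside cluster 0, whose KO cells held 8 of 384.

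Of 18 stress genes 4 were lower and 2 higher over all members. Heat-shock genes were higher in the WT fibroblasts: Hspa1b was at 1043 and 286 CPM, -1.87 (-2.04 to -1.70), and Hspa1a at 757 and 267 CPM, -1.50 (-1.69 to -1.31). Other barcodes showed the same direction (422 and 158 CPM for Hspa1b, 284 and 123 CPM for Hspa1a). In the 4 clusters 9 of the 18 were past 1.5-fold higher in the KO library, all immediate-early or related genes (Fos, Fosb, Junb, Egr1, Atf3, Ier2, Ier3, Dusp1 and Zfp36), and 5 were lower, all heat-shock genes. Such genes respond to tissue digestion, and its part in these levels was not tested.

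Over all genes, the 10 with the firmest higher levels in the KO library were Cxcl13, Enpp3, Sfrp2, Ncam2, Mgp, Frmpd4, Ugdh, Has1, Il6 and Mt2. Mgp, a matrix protein that inhibits calcification, was at 127 and 595 CPM, 2.23 (1.86 to 2.64), in 18 of 46 and 177 of 263 cells; other barcodes held it at 350 and 273 CPM. Enpp3, an ectonucleotidase, was at 4.36 and 98.4 CPM (2 WT and 263 KO UMIs), Ncam2, an adhesion protein, at 2.18 and 52.4 CPM (1 and 140 UMIs) and Frmpd4 at 21.8 and 130 CPM. Mt2, a metallothionein, was at 133 and 400 CPM, 1.59 (1.21 to 1.98). The WT levels of Enpp3, Ncam2 and Frmpd4 rest on 2, 1 and 10 UMIs.

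The 10 ranked lowest in the KO library by the same bound were Lcn2, Saa3, Slc36a2, Igfbp3, Nppc, Csf3, Cxcl5, Hspa1b, Sncaip and Ctla2a. Lcn2, an iron-trap protein of the acute phase, was at 1006 and 88.7 CPM, -3.50 (-3.74 to -3.27), and -2.88 (-3.31 to -2.46) in the 4 clusters, with other barcodes at 473 and 208 CPM. Slc36a2, an amino acid transporter, was at 72.0 and 9.73 CPM and Sncaip, which leads cluster 0, at 105 and 21.7 CPM. In single cells 93.3% of the WT Igfbp3, 93.8% of the Nppc, 70.3% of the Csf3 and 58.5% of the Ctla2a UMIs lay in 1 barcode each. Without the top cell of each library Igfbp3 was at 12.0 and 27.4 CPM and Nppc at 4.58 and 7.89 CPM, the opposite order.

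The remaining gene groups are given as counts. Of 13 genes of subepithelial cells high in Pdgfra 2 were higher and 3 lower (Bmp7, Wnt5a and Foxf2), all with intervals beyond 0. The 2 higher ones, F3 and Sox6, were lower in members than in other barcodes. In the 4 clusters 4 of 11 were lower and 1 higher, beside 16.6% and 15.7% of all genes there. Of 16 genes of tumour-associated matrix fibroblasts 2 were higher and 2 lower. Of 13 MHC genes 0 were higher and 3 lower, of 8 genes induced by type I interferon 1 and 4, of 9 proliferation genes 1 and 6, and of 20 glycolysis and hypoxia genes 2 and 1. In these last 4 groups at most 1 gene stood 2-fold above other barcodes in both libraries.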

How the data were processed

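Single-cell RNA libraries of AOM/DSS colon tumours, 1 for each genotype, were analysed from the unfiltered count matrices that the authors deposited. Per the file headers the counts are whole UMIs per gene and barcode made with Cell Ranger 4. The labels give 10x chemistry v3, and the submitters' processing notes give mm10 and Seurat, without a role for the latter. The sources used here do not name the gene annotation.

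UMIs were summed over members of each library and divided by their total (CPM), with exact Poisson, conditional binomial or Clopper-Pearson 95% intervals. Genes needed 20 UMIs. A gene at 0 in one library was set against a floor of 3 counts. The computation of the log2 ratio's interval was checked on simulated Poisson sums, which follow the interval's own model. Uneven counts between cells were not simulated, so that check does not bear on them. Members were clustered with scanpy 1.11.5 and igraph 0.11.9 (2000 variable genes, 20 components, 15 neighbours, Leiden resolution 0.5, also 0.3 and 1). Other tools were scipy 1.17.1 for intervals, numpy 2.4.6 and pandas 2.3.3 for sums and matplotlib 3.10.9 for plots, in Python 3.11.15. No doublet caller was run; mixed members and the clusters describe barcodes with RNA of several cells.

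Named genes were the rule genes, Pdgfra and Gsk3b, every measured Wnt and Bmp gene, up to 4 of the most counted called genes in each direction of a list, and 10 in each direction over all genes by the interval's bound nearest 0. The last needed 50 UMIs, 50 CPM in the higher library and 2-fold over its other barcodes. Genes outside this rule, such as Acta2, Ccl11, Il11, Ereg, Nrg1 and C3, were chosen after their values were seen. Some genes under the rule are not reported here. The members and lists were chosen with earlier results of these data known. Alternatives varied the limits, scaling, free RNA, mixed members and clusters.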

Additional observations from a re-analysis of the deposited data

How the results depend on the processing

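No paired analysis was possible because each group has 1 library, so the spread between animals is unknown, and WT depth (46 cells) limits every ratio. Settings that leave out or keep clusters were chosen after seeing the data. Of 103 genes followed, 65 were past 1.5-fold with an interval beyond 0. A gene was counted as reversed where its ratio changed sign, however near 0 the new value was. By this count 21 of the 65 reversed under at least 1 of 13 settings, 5 of them under at least 1 of the 9 settings listed at the outset. Except where a setting uses fewer cells or genes by construction, the cause was not tested.

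The KO share of fibroblasts was 2.90% with at least 2000 UMIs, 1.47% (WT 0.244%) with 1% from the rule genes, 1.89% without mixed members, 1.97% without clusters 3 and 6, and 1.75% without clusters 1, 3 and 6. The Pdgfra-positive share thinned to 1000 UMIs was 8.70% and 14.1%. Genes past 1.5-fold numbered 836 higher and 791 lower in cluster 0 alone and 1073 and 784 with at least 50 UMIs, and 2379 were lower with free RNA subtracted.

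List medians (log2) were as follows. With 1% from the rule genes, Wnt ligands were at -0.10, proteases at 0.30 and growth factors at 0.48. Without mixed members, stress genes were at 0.45. Without clusters 3 and 6, proteoglycans were at 0.058. Without clusters 1, 3 and 6, Wnt modulators were at 0.028, contractile genes at -0.94 and stress genes at 0.54. In cluster 0 alone, inflammatory genes were at -0.59, contractile -0.053, tumour-associated matrix 0.32, interferon gamma -1.30, MHC -0.99 and stress -0.28. Without cluster 0, Wnt modulators were at -0.30, contractile genes 0.26, collagens 0.69 and stress -0.11. As means over cells, Wnt modulators were at -0.32, the Tgf-beta list 0.12, proteoglycans 0.057 and stress 0.41. With free RNA subtracted, Wnt ligands were at -0.41, stress genes 0.45 and glycolysis 0.68.

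Single genes whose ratio changed sign had these log2 ratios. The new interval lay beyond 0 only for Mmp10 and Mmp13 with 1% from the rule genes, and for Tnfaip6, Iigp1 and Cxcl10 in cluster 0 alone. Every other interval that was computed included 0, such as -0.17 to 0.18 for Cxcl14 in cluster 0 alone. With 1% from the rule genes, Igfbp3 was at 0.75, Mmp10 at 1.07, Mmp13 at 2.12 and Id1 at -0.43. Without mixed members, Igfbp3 was at 0.87 and Mmp13 at 0.40. Without clusters 3 and 6, Nppc was at 1.27, Notum at -0.56 and Id1 at -0.12. Without clusters 1, 3 and 6, Igfbp3 was at 0.96, Nppc 1.78, Inhba -0.44, Notum -0.81 and Id1 -0.19. In cluster 0 alone, Tnfaip6 was at -1.30, Cxcl12 -0.22, Cxcl14 0.0033, Cd34 -0.63, Mfap4 0.14, Ogn 0.089, Iigp1 -3.17, Irf1 -0.16, Cxcl10 -2.73, Wnt5a 0.27, Frzb 0.043 and Id1 -0.28. Without cluster 0, Myl9 was at 0.10, Mylk 0.27, Myh11 0.26 and Ogn 0.15. As a mean over cells Notum was at -0.89.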
